A study of Arabidopsis thaliana with 16 samples.

Results

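The 10 genes described here code for enzymes that make the plant hormone auxin: the aminotransferases TAA1 and TAR2, and the flavin monooxygenases YUC1, YUC2, YUC3, YUC4, YUC5, YUC6, YUC8 and YUC9. They were chosen by locus from among 33602 loci with counts in the rosette region of Arabidopsis thaliana, and the counts of all transcript models of a locus were added up. The tissue was the lower stem with its axillary meristems, left after leaves, roots and the elongated upper stem were cut away. The strigolactone receptor mutant d14-7, the cytokinin oxidase double mutant ckx3 ckx5, the GRAS transcription factor mutant scl28 and wild type Col-0 (WT) had 4 RNA-seq libraries each, 16 in all. Plants grew with 16 h of light and 8 h of darkness and were taken between 9 and 11 in the morning, when the bolt was under 1 cm. The d14-7, ckx3 ckx5 and WT plants were 23 days from sowing and the scl28 plants 25 days, so that genotype and age cannot be told apart in comparisons with scl28. A library held 2 to 3 plants pooled, and the 4 libraries of a genotype were those with the best RNA integrity of 5 pools. What kind of lesion each mutant carries is not stated in the labels. The series asks how the mutants differ in the tissue from which rosette branches grow.

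Indole-3-acetic acid (IAA), the main natural auxin, is made from tryptophan in a short pathway. TAA1 and its relatives, among them TAR2, convert tryptophan to indole-3-pyruvate, and the YUC enzymes convert indole-3-pyruvate to IAA, the step usually taken as rate-limiting. Auxin that moves down the stem helps to keep axillary buds at rest, and strigolactone, perceived by D14, acts with it in restraining branching.

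Library totals ran from 24334925 to 36735056 estimated counts. Levels are given as CPM, counts scaled to a common library size by TMM, and levels of different genes are compared as CPM per kilobase of transcript. D14 and SCL28 were still counted in their mutants, at 30.5 ± 2.74 CPM in d14-7 against 41.2 ± 2.08 CPM in WT and at 15.5 ± 1.95 CPM in scl28 against 36.5 ± 8.73 CPM in WT (SD, n = 4). D14 was no higher in libraries labelled ckx3 ckx5, at 28.1 ± 1.69 CPM, so its level does not set d14-7 apart from them. CKX3 went against its label, at 1.73 ± 0.22 CPM in libraries labelled ckx3 ckx5 against 0.339 ± 0.298 CPM in WT, while CKX5 was at 2.83 ± 0.955 CPM there and 3.33 ± 1.87 CPM in WT. That genotype is therefore referred to as libraries labelled ckx3 ckx5. The axillary meristem markers STM, REV and KNAT1 had medians of 116, 119 and 116 CPM over the 16 libraries. The other markers of that list were much lower, with medians from 0.16 CPM (CLV3) to 6.92 CPM (BRC1). Of the root genes, RHD6 and EXPA7 were at 0 in 13 and 10 libraries. WOX5, IRT1, COBL9 and PRP3 had medians of 0.909, 0.298, 0.124 and 0.111 CPM. WT was spread along the level of leaf photosynthesis genes, and values without single WT libraries are given beside the results they change. In such tissue, fewer cells of a type and less RNA per cell cannot be told apart.

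A gene is said to have risen or fallen where edgeR's quasi-likelihood test, fitted to all 16 libraries, gave a Benjamini-Hochberg adjusted p under 0.05 over the 20947 loci that passed a filter on low counts (0.316 CPM in at least 4 libraries). Changes are log2 fold changes ± standard error, mutant over WT unless another pair is named. All 10 genes were tested, but YUC5, YUC8 and YUC9 passed the filter only through the d14-7 libraries.

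In d14-7 all 10 genes rose against WT. Over all loci tested in this comparison, 38.7% were called and 18.1% were called higher. The median change of the 10 genes was 1.61, against -0.01 over all loci. In each of the 10 genes every d14-7 library lay above every WT library, a separation found in 10.8% of all loci. YUC5, YUC8 and YUC9 had to be high in d14-7 to enter the test, and their changes of 2.11, 2.78 and 4.29 lift the median of the 10 genes. The other 7 genes, which pass the filter without the d14-7 libraries, all rose as well, by 0.90 (TAR2) to 2.90 (YUC2).

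**Figure D1:**
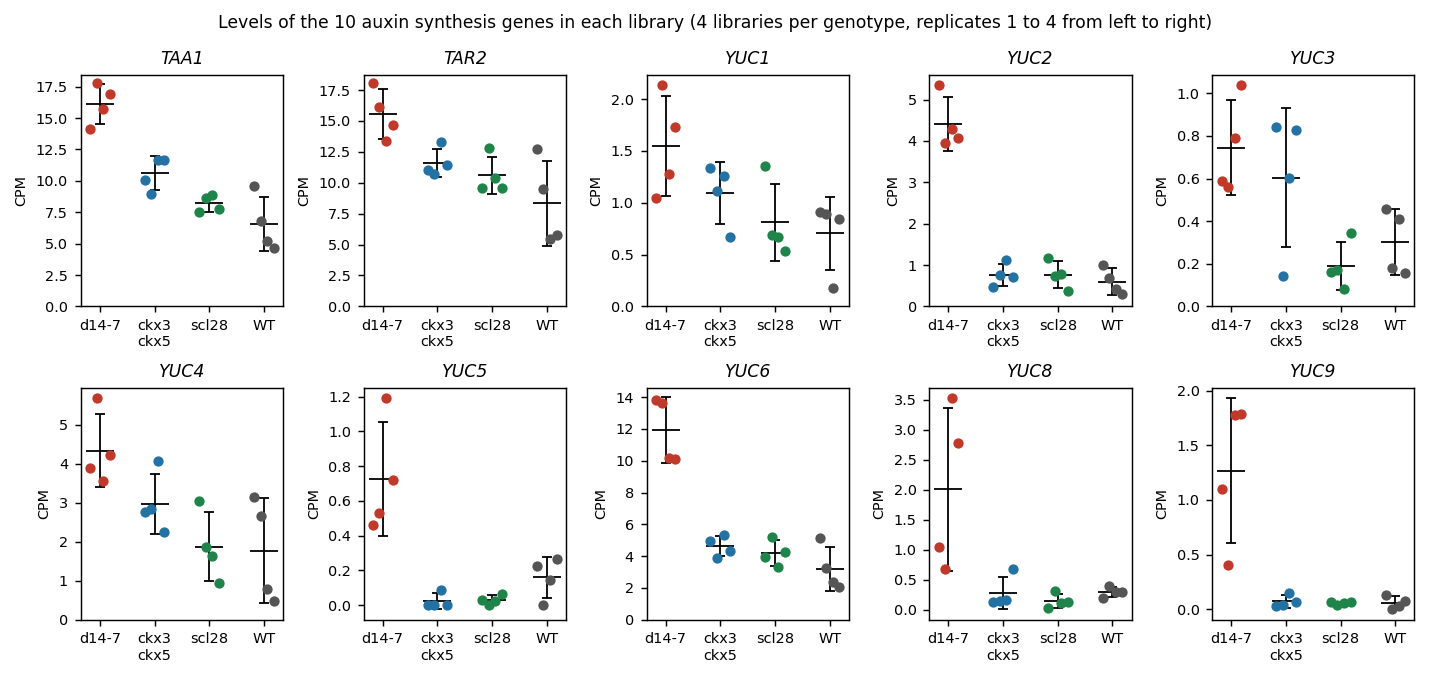
Level of each gene in CPM (vertical axis) in every library of d14-7, libraries labelled ckx3 ckx5, scl28 and WT; points are libraries, bars the mean and SD of 4. The d14-7 points lie above all WT points in each of the 10 panels, and WT replicates 3 and 4 are the lowest WT points of TAA1, TAR2, YUC2, YUC4 and YUC6.

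TAA1 (AT1G70560, chromosome 1, 26604855 to 26607652, plus strand, TAIR10.1) catalyses the first step and had the highest level per kilobase of the 10 genes in every genotype. It stood at 14.1, 17.8, 15.7 and 16.9 CPM in d14-7, at 10.1, 8.92, 11.7 and 11.7 CPM in libraries labelled ckx3 ckx5, at 7.53, 8.64, 8.91 and 7.79 CPM in scl28 and at 9.56, 6.77, 5.24 and 4.69 CPM in WT. The d14-7 libraries were above all the others, and WT replicate 1 reached the range of the libraries labelled ckx3 ckx5. TAA1 rose in d14-7 by 1.3 ± 0.17 (edgeR adjusted p = 6.62e-05).

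TAR2 (AT4G24670, chromosome 4, 12727531 to 12731331, minus strand), which acts beside TAA1 and partly in its place, was the second most abundant per kilobase in every genotype. Its levels were 18.1, 16.1, 13.4 and 14.7 CPM in d14-7, 11.0, 10.7, 13.3 and 11.4 CPM in libraries labelled ckx3 ckx5, 9.61, 12.8, 10.4 and 9.61 CPM in scl28 and 12.7, 9.48, 5.42 and 5.77 CPM in WT. The lowest d14-7 library was only just above the highest of the other genotypes. TAR2 rose in d14-7 by 0.90 ± 0.21 (edgeR adjusted p = 0.00412), the smallest change among the 10 genes. Together the aminotransferases reached 18.1 ± 1.11 CPM per kilobase in d14-7, 12.6 ± 1.37 in libraries labelled ckx3 ckx5, 10.5 ± 1.08 in scl28 and 8.34 ± 3.07 in WT.

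Among the YUC genes, YUC6 (AT5G25620, chromosome 5, 8934941 to 8938768, minus strand) was the most abundant per kilobase in each genotype. It was at 13.8, 13.6, 10.2 and 10.1 CPM in d14-7, 4.95, 3.9, 5.33 and 4.31 CPM in libraries labelled ckx3 ckx5, 3.93, 5.23, 3.33 and 4.27 CPM in scl28 and 5.14, 3.28, 2.35 and 2.06 CPM in WT. Every d14-7 library was well above the range of the other 12 libraries. The rise in d14-7 was 1.90 ± 0.23 (edgeR adjusted p = 3.84e-05).

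YUC2 (AT4G13260, chromosome 4, 7721487 to 7724070, minus strand), which in Arabidopsis acts together with YUC6 in stamen development, had 127, 127, 130 and 141 counts in d14-7, or 5.35, 3.94, 4.28 and 4.06 CPM. It was at 0.467, 0.752, 1.11 and 0.702 CPM in libraries labelled ckx3 ckx5, 1.17, 0.723, 0.774 and 0.377 CPM in scl28 and 1.01, 0.677, 0.412 and 0.290 CPM in WT. The d14-7 libraries stood close together and far above all others, whose ranges overlapped. YUC2 rose by 2.90 ± 0.35 in d14-7 (edgeR adjusted p = 3.23e-05). Its share of the summed per-kilobase level of the 8 YUC genes was 15.9% in d14-7, 6.88% in libraries labelled ckx3 ckx5, 9.18% in scl28 and 7.97% in WT.

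Since YUC2 had the largest change in d14-7 among the 7 genes that pass the filter without d14-7, the 250 bases before its annotated start (chr4:7724071-7724320, minus strand, TAIR10.1, RefSeq) are shown. The capitals mark matches, both here on the reverse strand, to the evening element core AATATCT and to the auxin response element TGTCTC.
YUC2: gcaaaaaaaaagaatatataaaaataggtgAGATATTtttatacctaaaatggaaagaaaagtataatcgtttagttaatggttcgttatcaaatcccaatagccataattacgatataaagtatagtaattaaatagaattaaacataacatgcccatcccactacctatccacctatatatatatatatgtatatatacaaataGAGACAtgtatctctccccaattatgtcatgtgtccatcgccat
The matches begin 220 and 44 bases before the start of the gene. Of 27443 windows of this length before annotated genes, 10% hold AATATCT and 10.9% hold TGTCTC, counted on both strands. Among the 10 genes, AATATCT was found before YUC2 and YUC4 and TGTCTC before YUC2. The G-box CACGTG, held by 6.49% of all windows, was in none of the 10, and the TCP core GGNCCC, held by 7.35%, was before YUC1. No matches overlap each other in these windows.

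YUC4 (AT5G11320, chromosome 5, 3611247 to 3613640, minus strand) and YUC1 (AT4G32540, chromosome 4, 15700829 to 15703000, plus strand) act together in Arabidopsis organ and flower formation. YUC4 was at 3.88, 5.68, 3.56 and 4.21 CPM in d14-7, 2.77, 2.83, 4.06 and 2.24 CPM in libraries labelled ckx3 ckx5, 3.05, 1.86, 1.63 and 0.942 CPM in scl28 and 3.15, 2.67, 0.795 and 0.475 CPM in WT. WT replicates 1 and 2 were several times above replicates 3 and 4. YUC4 rose in d14-7 by 1.32 ± 0.45 (edgeR adjusted p = 0.0295). YUC1 was at 1.05, 2.14, 1.28 and 1.73 CPM in d14-7, 1.34, 1.11, 1.26 and 0.671 CPM in libraries labelled ckx3 ckx5, 1.36, 0.688, 0.667 and 0.534 CPM in scl28 and 0.910, 0.891, 0.177 and 0.844 CPM in WT. The d14-7 range of YUC1 was reached by 3 libraries labelled ckx3 ckx5 and 1 scl28 library, and WT replicate 3, with 6 counts, was far below the rest. YUC1 rose by 1.15 ± 0.40 (edgeR adjusted p = 0.0326).

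YUC3 (AT1G04610, chromosome 1, 1279351 to 1281618, plus strand) was at 0.590, 0.559, 0.790 and 1.04 CPM in d14-7, 0.841, 0.143, 0.602 and 0.830 CPM in libraries labelled ckx3 ckx5, 0.162, 0.172, 0.0800 and 0.345 CPM in scl28 and 0.455, 0.178, 0.412 and 0.158 CPM in WT. Replicate 2 of libraries labelled ckx3 ckx5, with 4 counts, was apart from the other 3. YUC3 rose in d14-7 by 1.31 ± 0.48 (edgeR adjusted p = 0.0419), the call nearest to the threshold.

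YUC8, YUC9 and YUC5, which in Arabidopsis seedlings respond to warmth or shade, were near the detection limit outside d14-7. YUC8 (AT4G28720, chromosome 4, 14192569 to 14194302, plus strand) had 25, 22, 107 and 96 counts in d14-7, 4, 4, 5 and 21 in libraries labelled ckx3 ckx5, 1, 9, 4 and 4 in scl28 and 6, 11, 10 and 11 in WT. YUC9 (AT1G04180, chromosome 1, 1104493 to 1106241, plus strand) had 26, 13, 54 and 62 counts in d14-7, 1, 1, 5 and 2 in libraries labelled ckx3 ckx5, 2, 1, 2 and 2 in scl28 and 4, 0, 1 and 3 in WT. YUC5 (AT5G43890, chromosome 5, 17648576 to 17650375, minus strand) had 11, 17, 36 and 25 counts in d14-7, 0, 0, 3 and 0 in libraries labelled ckx3 ckx5, 1, 0, 1 and 2 in scl28 and 7, 0, 5 and 10 in WT.

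In all of these genes d14-7 replicates 3 and 4 had more counts than replicates 1 and 2. YUC8 was at 1.05, 0.683, 3.52 and 2.77 CPM, YUC9 at 1.1, 0.404, 1.78 and 1.79 CPM and YUC5 at 0.464, 0.528, 1.19 and 0.720 CPM in the 4 d14-7 libraries. YUC6, by contrast, was lower in CPM in d14-7 replicates 3 and 4 than in replicates 1 and 2.

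Against WT, YUC9 rose by 4.29 ± 0.59 (edgeR adjusted p = 9.89e-05), the largest change of the 10. Summed over libraries it had 155 counts in d14-7 and 8 in WT, a ratio of 20.9 after library size (95% exact binomial interval 10.4 to 49.3, counting error only). YUC8 rose by 2.78 ± 0.58 (edgeR adjusted p = 0.00228), with 250 counts in d14-7 against 38 in WT. YUC5 rose by 2.11 ± 0.58 (edgeR adjusted p = 0.0106), with 89 counts in d14-7 and 22 in WT.

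YUC5 and YUC9 have the most similar coding sequences of the 45 pairs among the 10 genes, 80.5% identical, followed by YUC8 with YUC9 at 72.7%. The longest identical stretch of YUC5 and YUC9 is 42 bases, and none of the 50-base words of any of the 10 genes occurs in a transcript of another locus. None of the 10 genes overlaps another annotated gene. The windows before YUC5 and YUC9 are shown because they also share the most sequence of the 45 pairs. The capitals mark 4 stretches of at least 10 bases, in the same order in both genes, that add up to 47 bases. The coordinates are chr5:17650376-17650625 on the minus strand for YUC5 and chr1:1104243-1104492 on the plus strand for YUC9 (TAIR10.1, RefSeq).
YUC5: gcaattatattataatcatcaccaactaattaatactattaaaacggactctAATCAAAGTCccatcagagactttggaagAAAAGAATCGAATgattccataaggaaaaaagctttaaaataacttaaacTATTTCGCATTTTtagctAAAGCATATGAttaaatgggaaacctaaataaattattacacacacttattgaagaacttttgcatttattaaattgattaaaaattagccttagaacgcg
YUC9: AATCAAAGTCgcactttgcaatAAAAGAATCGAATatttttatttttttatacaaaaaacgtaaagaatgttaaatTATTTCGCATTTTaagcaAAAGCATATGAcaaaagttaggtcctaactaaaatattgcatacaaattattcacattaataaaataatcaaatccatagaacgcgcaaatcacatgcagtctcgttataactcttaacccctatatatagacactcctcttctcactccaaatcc
The next pair, TAA1 and YUC4, shares 35 bases in such stretches, and YUC5 and YUC8 share 32.

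Summed over the 8 YUC genes, the per-kilobase level was 13.3, 13.7, 13.6 and 13.6 CPM per kilobase in the d14-7 libraries. It was 5.43, 4.63, 6.62 and 4.83 in libraries labelled ckx3 ckx5, 5.13, 4.42, 3.35 and 3.24 in scl28 and 5.71, 4.22, 2.28 and 2.32 in WT. The mean sum was 13.6 ± 0.173 in d14-7 and 3.63 ± 1.65 in WT (SD, n = 4). An SD from 4 libraries is itself imprecise, and the counts behind each sum carry counting error. Whether the d14-7 sums vary less than other sums was not tested. YUC6 made up 37.1% of the sum in d14-7, 36.1% in libraries labelled ckx3 ckx5, 43.7% in scl28 and 37.1% in WT. YUC4 made up 18.8% in d14-7 and 28.8% in WT. YUC5, YUC8 and YUC9 held 2.97%, 8.57% and 5.67% in d14-7, against 2.44%, 4.64% and 0.995% in WT.

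**Figure D2:**
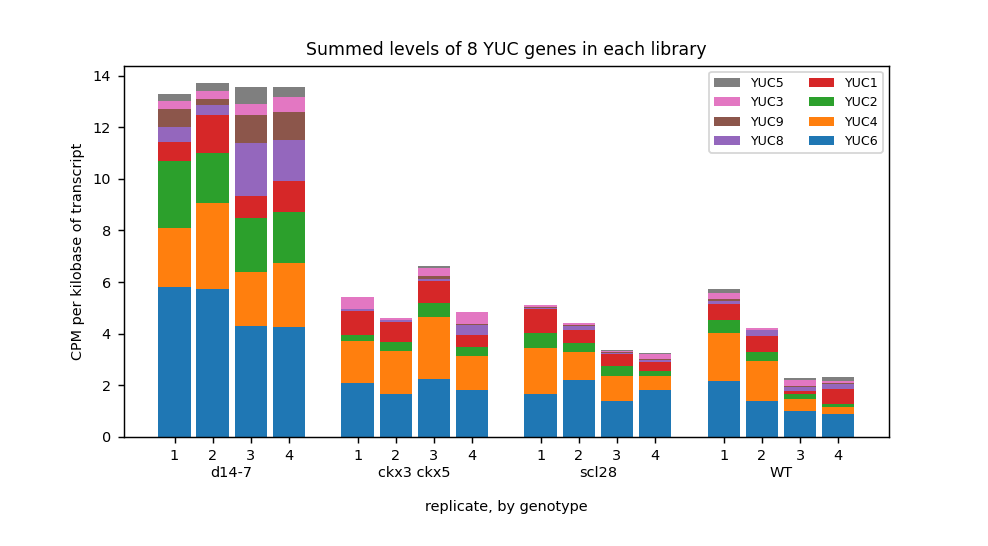
Level of the 8 YUC genes in CPM per kilobase of transcript (vertical axis), stacked by gene, in replicates 1 to 4 of each genotype. The 4 d14-7 columns reach 13.3 to 13.7, and the highest of the other columns reaches 6.62; YUC6 is the largest part in each genotype.

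Many leaf photosynthesis genes also rose in d14-7. Of 19 such genes, 10 rose and none fell in d14-7 against WT, where 38.7% of all loci were called and 18.1% were called higher. None of the 19 was at 0 in any library. Their summed level was 38900 to 49600 CPM in d14-7, 30600 to 34900 in libraries labelled ckx3 ckx5, 26100 to 29900 in scl28 and 26800 to 46000 in WT. In libraries labelled ckx3 ckx5 3 of the 19 fell against WT and in scl28 4 fell, and none rose in either. These counts lie near or below the share of all loci called in either direction, 29.6% and 19.8%. The leaf score, their mean log2 CPM, was 10.95, 10.65, 10.89 and 11.02 in d14-7 replicates 1 to 4 and 10.92, 10.55, 10.23 and 10.03 in WT replicates 1 to 4. TAA1, YUC2, YUC4 and YUC6 had the same order as the leaf score in the WT libraries. WT replicate 1, whose leaf score was within the d14-7 range, had 9.56 CPM of TAA1, 1.01 CPM of YUC2 and 5.14 CPM of YUC6, below the lowest d14-7 values of 14.1, 3.94 and 10.1 CPM. In 4 other genes it came close to the lowest d14-7 library, with 12.7 CPM of TAR2, 3.15 CPM of YUC4, 0.910 CPM of YUC1 and 0.455 CPM of YUC3, where the lowest d14-7 values were 13.4, 3.56, 1.05 and 0.559 CPM. With the leaf score as a covariate, 4 of the 10 genes were called in d14-7 against WT, where 9.62% of all loci were: TAA1, YUC2, YUC6 and YUC9. The other 6 genes were then not called (edgeR adjusted p = 0.0756 for TAR2, 0.249 for YUC1, 0.303 for YUC3, 0.35 for YUC4, 0.098 for YUC5 and 0.0593 for YUC8). Of these, TAR2 and YUC4 had smaller changes with the covariate (0.48 and 0.64, against 0.90 and 1.32 without it). The changes of YUC1 (0.94), YUC3 (1.08), YUC5 (2.16) and YUC8 (2.66) lay closer to those without it (1.15, 1.31, 2.11 and 2.78).

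**Figure D3:**
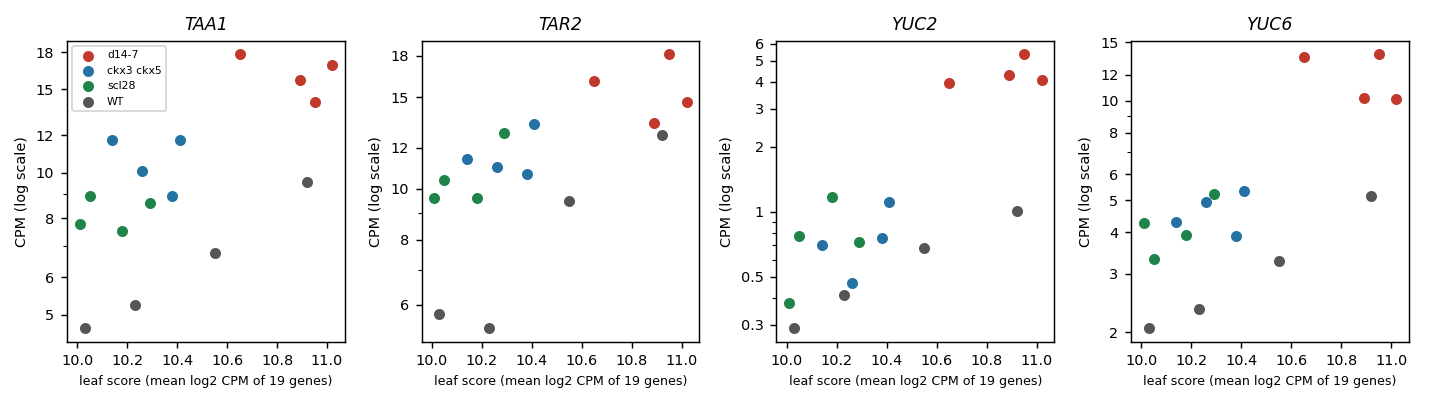
Level of TAA1, TAR2, YUC2 and YUC6 in CPM (vertical axis, log scale) against the leaf score (mean log2 CPM of 19 photosynthesis genes) in the 16 libraries, coloured by genotype. WT spans scores of 10.03 to 10.92, and at its highest score it is still below the d14-7 points, by little in TAR2 and by more in YUC2.

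TAA1, YUC2 and YUC6 kept their call in d14-7 against WT in all 27 alternative settings, and YUC9 in all 26 in which it was tested. Single libraries decided other calls. YUC1 and YUC4 were not called without WT replicate 3 (edgeR adjusted p = 0.0807 and 0.095), WT replicate 4 (0.0506 and 0.0792), d14-7 replicate 2 (0.104 and 0.0843) or d14-7 replicate 4 (0.0726 and 0.0528). YUC3 was not called without any 1 of the d14-7 libraries (0.0517, 0.0523, 0.0708 and 0.124 for replicates 1 to 4), nor without WT replicate 2 (0.0923), 3 (0.0561) or 4 (0.126), replicate 3 labelled ckx3 ckx5 (0.0515) or scl28 replicate 1 (0.0514). Without WT replicate 1 all 10 genes were called.

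In libraries labelled ckx3 ckx5, 1 of the 10 genes, TAA1, rose against WT, where 29.6% of all loci were called and 13.6% were called higher. Its mean was 10.6 ± 1.34 CPM in these libraries and 6.57 ± 2.18 CPM in WT (SD, n = 4), a change of 0.69 ± 0.17 (edgeR adjusted p = 0.00603), and 3 of the 4 libraries lay above all WT libraries. TAR2 and YUC6 had changes of 0.48 ± 0.21 and 0.54 ± 0.24 (edgeR adjusted p = 0.0939 and 0.0958). YUC5 went the other way, with 3 counts in libraries labelled ckx3 ckx5 and 22 in WT (-2.60 ± 0.98, edgeR adjusted p = 0.0559). Without WT replicate 1, TAR2, YUC4 and YUC6 were called higher as well (edgeR adjusted p = 0.00231, 0.0487 and 0.00228). YUC5 was called lower without WT replicate 2 (0.0173) or replicate 3 labelled ckx3 ckx5 (0.0218), and YUC3 higher without replicate 2 labelled ckx3 ckx5 (0.0326). With the leaf score as a covariate 5 of the 10 genes were called, where 42.1% of all loci were. Beside TAA1, these were TAR2, YUC4 and YUC6, which were higher (edgeR adjusted p = 0.000684, 0.0102 and 0.00426), and YUC5, which was lower (0.045).

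In scl28, edgeR called 0 of the 10 genes against WT, while it called 19.8% of all loci. At an unadjusted edgeR p under 0.05 there was 1 gene, YUC5, with 4 counts in scl28 and 22 in WT. DESeq2 and limma-voom called 0, beside 19.6% and 20% of all loci. TAA1 was at 8.22 ± 0.662 CPM in scl28 and 6.57 ± 2.18 CPM in WT, with a 95% interval of its log2 fold change from -0.01 to 0.67. For YUC2 the interval ran from -0.37 to 1.11 and for YUC8 from -2.53 to 0.46. A 2-fold rise of YUC2 and a 2-fold fall of YUC8 thus could not be told from no change. Without WT replicate 1, TAA1, TAR2 and YUC6 were called higher in scl28 (edgeR adjusted p = 0.00522, 0.0129 and 0.0129), and without WT replicate 2, YUC5 was called lower (0.0328). With the leaf score as a covariate 4 of the 10 genes, TAA1, TAR2, YUC2 and YUC6, were called higher (edgeR adjusted p = 0.00161 to 0.0326), where 33.6% of all loci were called.

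**Figure D4:**
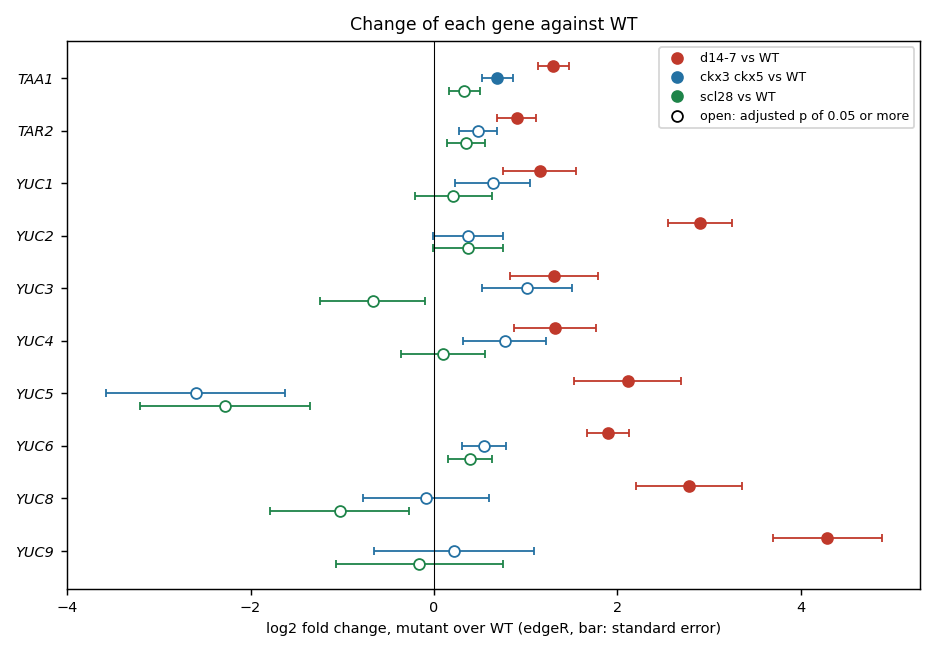
Log2 fold change of each gene against WT (horizontal axis, bars: standard error) in d14-7, libraries labelled ckx3 ckx5 and scl28; filled points have an edgeR adjusted p under 0.05. All 10 d14-7 points are filled and right of 0, between 0.90 (TAR2) and 4.29 (YUC9), and TAA1 is the only filled point of libraries labelled ckx3 ckx5.

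The mutants were also compared with each other. These comparisons share the d14-7 libraries with the comparison against WT. Against libraries labelled ckx3 ckx5, 6 of the 10 genes rose in d14-7, where 36.8% of all loci were called and 17.8% were called higher. These were TAA1 (0.61 ± 0.17), YUC2 (2.53 ± 0.34), YUC5 (4.71 ± 0.80), YUC6 (1.36 ± 0.23), YUC8 (2.87 ± 0.59) and YUC9 (4.07 ± 0.58), with edgeR adjusted p-values between 2.56e-05 and 0.00891. These 6 and TAR2 did not overlap between the groups, with d14-7 above, which held for 20.6% of all loci, but the TAR2 change of 0.42 ± 0.20 was not called (edgeR adjusted p = 0.119, and 0.0346 without WT replicate 1). Of the 7 genes that pass the filter without the d14-7 libraries, 3 were called. YUC1, YUC3 and YUC4 overlapped, with changes of 0.51 ± 0.39, 0.30 ± 0.45 and 0.54 ± 0.43.

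Against scl28, 9 of the 10 genes rose in d14-7, where 42.5% of all loci were called and 20% were called higher. The 9 genes did not overlap between the groups, as did 19.4% of all loci with d14-7 above. Of the 7 genes that pass the filter without the d14-7 libraries, 6 were called. YUC1 was not called (0.94 ± 0.39, edgeR adjusted p = 0.064). The calls of TAR2 (0.55 ± 0.21, edgeR adjusted p = 0.0393) and YUC4 (1.22 ± 0.44, 0.0358) each depended on single libraries. TAR2 was not called without d14-7 replicate 1 (0.105), 2 (0.0789) or 4 (0.0565) or scl28 replicate 1 (0.0911), 3 (0.0791) or 4 (0.0912). YUC4 was not called without d14-7 replicate 1 (0.0512), 2 (0.0981) or 4 (0.0589) or scl28 replicate 2 (0.0669), 3 (0.084) or 4 (0.1). YUC1 was called without WT replicate 3 (0.023) or scl28 replicate 1 (0.0219).

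Between scl28 and libraries labelled ckx3 ckx5, 1 of the 10 genes was called, beside 24.7% of all loci, with 11.5% called lower. YUC3 fell to 0.190 ± 0.112 CPM in scl28, against 0.604 ± 0.326 CPM in libraries labelled ckx3 ckx5 (-1.68 ± 0.53, edgeR adjusted p = 0.0272), although the ranges overlapped through the library with 4 counts. This call was lost without replicate 1, 3 or 4 labelled ckx3 ckx5 (0.0802, 0.0506 and 0.0815) or scl28 replicate 1, 2 or 3 (0.0655, 0.0585 and 0.0883). TAA1 did not overlap, with all 4 scl28 libraries below, as in 14.6% of all loci, but was not called (-0.36 ± 0.17, edgeR adjusted p = 0.131, and 0.0286 without WT replicate 1). In a test for any difference among the 4 genotypes, 9 of the 10 genes were called, beside 62.8% of all loci, and YUC1 was not (edgeR adjusted p = 0.0645). The 9 include YUC5, YUC8 and YUC9, which entered this test only by being high in d14-7. In mean CPM all 10 genes were highest in d14-7. TAA1, TAR2, YUC1, YUC4 and YUC6 then followed in the order of libraries labelled ckx3 ckx5, scl28 and WT, in which no neighbouring pair was called in any of the 5.

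Of the other relatives, TAR3 and TAR4 passed the filter, while TAR1, YUC7, YUC10 and YUC11 did not. TAR3 fell to 1.23 ± 0.235 CPM in d14-7, against 3.08 ± 0.787 CPM in WT (-1.33 ± 0.23, edgeR adjusted p = 0.000668), and TAR4 was not called in d14-7. In libraries labelled ckx3 ckx5, TAR4 fell to 4.93 ± 0.827 CPM, against 11.5 ± 5.42 CPM in WT (-1.23 ± 0.26, edgeR adjusted p = 0.00203), and TAR3 was not called. Neither was called in scl28 against WT. TAR4 was higher in scl28 than in libraries labelled ckx3 ckx5 (1.01 ± 0.26, edgeR adjusted p = 0.00894).

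The tryptophan synthesis genes, which supply the substrate of TAA1 and TAR2, were called in opposite directions in d14-7 and scl28. In d14-7 against WT, 8 of 11 rose and none fell, where 38.7% of all loci were called and 18.1% were called higher. Tryptophan synthase alpha TSA1 reached 197 ± 18.2 CPM in d14-7 against 150 ± 12.3 CPM in WT, and the anthranilate synthase gene ASA2 at 31.3 ± 2.02 CPM and 24.9 ± 2.33 CPM. In scl28 against WT, 7 of 11 fell and none rose, where 19.8% of all loci were called. Among the falls were TSA1 (98.9 ± 5.09 CPM in scl28) and ASA1 (80.9 ± 4.94 CPM in scl28 against 116 ± 10.1 CPM in WT). Libraries labelled ckx3 ckx5 had 2 rises and 1 fall, beside 29.6% of all loci called. Against scl28, 10 of 11 rose in d14-7 and PAI3 fell, where 42.5% of all loci were called and 20% were called higher. The list's median change was 0.33 in d14-7 and -0.35 in scl28, beside -0.01 and 0.01 over all loci. PAI1 and PAI2 are near-identical copies whose reads may be shared.

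Of 8 genes of other routes to IAA, through indole-3-acetaldoxime, nitrilases or an amidase, 4 rose and 1 fell in d14-7. Over all loci, 38.7% were called in d14-7 against WT and 18.1% were called higher. NIT4, whose enzyme acts mainly on cyanoalanine, reached 10.9 ± 4.80 CPM in d14-7 against 1.60 ± 0.165 CPM in WT (2.76 ± 0.29), and NIT2 fell to 20.5 ± 4.35 CPM, against 44.5 ± 12.4 CPM in WT. Libraries labelled ckx3 ckx5 had 1 rise and 4 falls, beside 29.6% of all loci called. In scl28, 5 fell and none rose, beside 19.8% of all loci called. CYP79B2, which makes indole-3-acetaldoxime, was at 63.0 CPM in scl28 and 125 CPM in WT.

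Genes listed as inactivating IAA split by member. The list includes VAS1, whose enzyme acts on indole-3-pyruvate, the precursor of IAA, and not on IAA itself. VAS1 was not called in d14-7 or scl28 against WT and fell in libraries labelled ckx3 ckx5 (-0.25 ± 0.06, edgeR adjusted p = 0.00325). Of 12 tested in d14-7, 5 rose and 5 fell. The GH3 enzymes join IAA to amino acids, and 4 of them fell: GH3.6 to 70.9 ± 11.6 CPM in d14-7 against 295 ± 53.9 CPM in WT (-2.06 ± 0.16, edgeR adjusted p = 5.27e-07), with GH3.9 (-1.65 ± 0.15), GH3.17 (-0.82 ± 0.14) and GH3.5 (-1.44 ± 0.27). GH3.1, GH3.2 and GH3.3 rose, by 1.25 ± 0.27, 0.73 ± 0.14 and 0.54 ± 0.12. In libraries labelled ckx3 ckx5, 2 of the 12 rose and 6 fell, and in scl28, 1 rose and 4 fell. Of 6 tested genes that release IAA from conjugates, none rose and 1 fell in d14-7, 3 fell in libraries labelled ckx3 ckx5 and 2 fell in scl28. The shares of all loci called against WT were 38.7% in d14-7, 29.6% in libraries labelled ckx3 ckx5 and 19.8% in scl28.

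Of 10 Aux/IAA genes tested, a family of which many members are induced by auxin and repress its response, 3 rose in d14-7 and none fell. LBD16 and LBD29, listed with them, did not pass the filter. IAA29 reached 7.45 ± 5.54 CPM in d14-7 against 0.617 ± 0.160 CPM in WT (3.59 ± 0.49), and IAA1 and IAA5 changed by 0.62 ± 0.17 and 1.06 ± 0.29. There were 4 rises and no fall in libraries labelled ckx3 ckx5, with IAA1 at 1.37 ± 0.17. In scl28, 1 fell, IAA19 (-0.81 ± 0.22), and none rose. Beside these counts, 38.7% of all loci were called in d14-7 (18.1% higher) and 29.6% in libraries labelled ckx3 ckx5 (13.6% higher). The share in scl28 was 19.8%.

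Of 11 transcription factor genes known to regulate YUC or TAA1 genes in Arabidopsis, 1 rose and 7 fell in d14-7. Over all loci, 38.7% were called there and 18.1% were called higher. IDD14 and IDD16, known as activators of YUC5 and TAA1, fell by 1.07 and 1.3 on the log2 scale. PIF4 and RVE1, known as activators of YUC8, each fell by 0.70. PIF7 was the gene that rose (0.86 ± 0.28, edgeR adjusted p = 0.0236). In libraries labelled ckx3 ckx5, 2 rose and 3 fell, beside 29.6% of all loci called. In scl28, 3 rose and 3 fell, beside 19.8% of all loci called, with RVE1 among the rises (1.36 ± 0.10) and PIF4 among the falls (-0.68 ± 0.10).

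**Figure D5:**
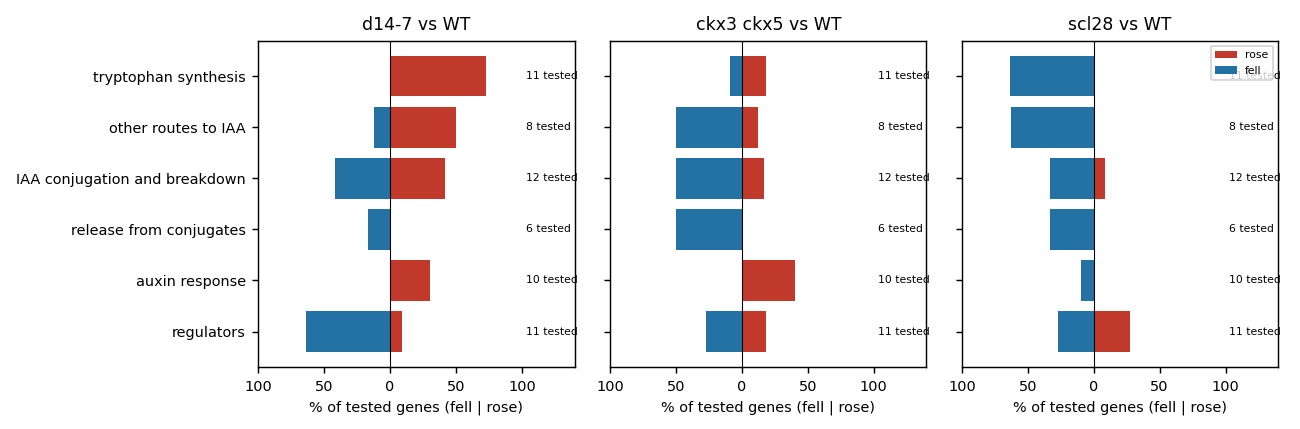
Share of the tested genes of 6 auxin-related lists that rose (right of 0) or fell (left of 0) against WT at an edgeR adjusted p under 0.05, in percent, with the number tested; panels are d14-7, libraries labelled ckx3 ckx5 and scl28. The tryptophan synthesis bar points right in d14-7 (8 of 11) and left in scl28 (7 of 11). Over all loci, 38.7% were called in d14-7, 29.6% in libraries labelled ckx3 ckx5 and 19.8% in scl28.

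Among the other marker lists, the axillary meristem list had a negative median change in d14-7. It was -0.56 against WT, where the median of the leaf list was 0.33 and that of all loci -0.01. Of 12 tested axillary meristem and bud genes, none rose and 6 fell in d14-7 against WT, where 38.7% of all loci were called in either direction. The falls were led by the bud outgrowth repressor BRC1 at 0.373 ± 0.0878 CPM in d14-7 against 6.99 ± 0.721 CPM in WT (-4.22 ± 0.27). The summed level of the 13 genes listed was 322 to 366 CPM in d14-7, 345 to 382 in libraries labelled ckx3 ckx5, 361 to 499 in scl28 and 332 to 527 in WT, with the stem cell gene CLV3 at 0 in 1 library. The 8 flower genes summed to 9.60 to 13.3 CPM in d14-7, 9.71 to 27.5 in libraries labelled ckx3 ckx5, 12.1 to 19.8 in scl28 and 7.72 to 11.0 in WT. Of these, 1 rose in d14-7, 5 rose in libraries labelled ckx3 ckx5 and 2 rose in scl28, beside 38.7%, 29.6% and 19.8% of all loci called. The 6 root genes summed to at most 2.42 CPM in any library, and of the 2 tested, WOX5 rose in each mutant. Its level was low throughout, at 1.22 CPM in d14-7, 0.976 in libraries labelled ckx3 ckx5, 0.865 in scl28 and 0.417 in WT. The part of these tissues in the levels of the auxin genes was not tested.

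The genes whose levels over the 16 libraries were most like those of each gene were found by Pearson's r of log2 CPM, given as a description, since the libraries share genotypes and much of r reflects the differences between them. For TAA1 these were KAS III, LPD1 and FAB1 (r = 0.977, 0.972 and 0.968). AT4G19380 was the nearest to YUC2 (0.966) and the second for YUC6 (0.947). AT5G02760 was the nearest to YUC8 (0.929) and the second for YUC9 (0.923), with a mean of 27.4 CPM in d14-7 against 4.65 CPM in WT. AT3G54830 was the nearest to YUC9 (0.931) and the third for YUC5 (0.92). TAR2, YUC3 and YUC4 were nearest to AT5G64150 (0.955), AT1G61640 (0.872) and AT3G27180 (0.968).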

How the data were processed

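Poly(A) RNA of 16 libraries (4 genotypes, 4 libraries each) was made into libraries with the NEBNext Ultra kit, per the labels' protocols, which does not mark strand. The authors deposited estimated counts for 41671 transcript models, already whole numbers, so that nothing was rounded. They also deposited a normalized table, a signal equal to each count divided by 1 factor per library (99.39% of ratios within 1%), used only for this check. The submitters' processing notes name TAIR10 and DESeq2, without a version. The aligner, the counting tool and the strand setting were not given in the sources used here.

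Counts were summed to 33602 loci. Tests used edgeR 4.0.16 in R 4.3.3 (TMM, filterByExpr, glmQLFit with robust estimation, 4 genotype means), which was first tested on simulated data; 20947 loci were tested and adjusted together. Log2 CPM for the leaf score and for similar patterns used a prior count of 2. Levels per kilobase used the most abundant model's RefSeq length. DESeq2 1.42.0, limma 3.58.1 (voom), other scalings and filters, a leaf score covariate, a replicate block and each library left out were tried. No 2 libraries of a genotype agreed within sampling noise. Libraries are separate pools of plants, so p-values measure the spread between pools. The precision of low genes is limited by their counts, and intervals on counts cover counting error only.

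The 10 genes and the lists were chosen with earlier results of these data known. Named genes were the 10, the 4 targeted genes, the 3 most similar loci per called gene, of which some are given, and up to 4 genes per list with the smallest adjusted p; other list genes, such as GH3.1, GH3.2, GH3.3, IAA19, ASA1 and PIF7, were named after their values were seen. Sequences were read from the RefSeq genome and annotation (TAIR10.1), and motifs were searched as exact letters on both strands.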

Additional observations from a re-analysis of the deposited data

Results flagged for a closer look

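Of 40 sets of 4 libraries (10 genes in 4 genotypes), 3 had a library far from the others by Dixon's test at the 95% level. For normally distributed values chance meets this rule in about 1 of 20 sets, which need not hold for counts near 0. YUC1 in WT replicate 3 was at 0.177 CPM, while the other WT libraries were at 0.844 to 0.910 CPM. YUC5 in replicate 3 labelled ckx3 ckx5 was at 0.0903 CPM (3 counts), while the other 3 libraries had 0 counts. With those at 0, any count in replicate 3 would have met the rule. YUC8 in replicate 4 labelled ckx3 ckx5 was at 0.671 CPM (21 counts), while the other 3 were at 0.125 to 0.151 CPM.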

How the results depend on the processing

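Of 1586 values of a gene in a comparison under an alternative setting, 1494 kept their side of the threshold (28 of them uncalled values that changed sign), 62 lost a call, 28 gained one and 2 called values turned. These 2 were TAR2 (-0.28) and YUC4 (-0.34) in d14-7 against scl28 with the leaf score as a covariate, neither called with it. With that covariate the number of the 10 genes called was 4 in d14-7 against WT (beside 9.62% of all loci), 5 in libraries labelled ckx3 ckx5 against WT (42.1%), 4 in scl28 against WT (33.6%), 3 in d14-7 against libraries labelled ckx3 ckx5 (23.4%) and 2 in d14-7 against scl28 (17.8%), so that the last 4 counts lie near the share over all loci. A stricter filter of 1 CPM in at least 4 libraries left 6 genes tested, and all 6 were called in d14-7 against WT (beside 41.5% of all loci). YUC2, 1 of these 6, passed the stricter filter only through the d14-7 libraries, so its calls against d14-7 are no independent check. Of these 6, 3 were called in d14-7 against libraries labelled ckx3 ckx5 (39.1%) and 5 in d14-7 against scl28 (44.8%). In scl28 against libraries labelled ckx3 ckx5 the number was 0 (26.3%), and for any genotype difference it was 5 (65.7%). In libraries labelled ckx3 ckx5 against WT, DESeq2 and limma-voom each called 2 (27.3% and 30.3% of all loci). In scl28 against libraries labelled ckx3 ckx5, limma-voom called 0 (24.5%) and a model of those groups alone called 2 (30%). The cause of these shifts was not tested.

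Leaving out each of the 16 libraries in turn gave 7 to 10 calls in d14-7 against WT (beside 23.9% to 49.1% of all loci). Libraries labelled ckx3 ckx5 against WT had 1 to 4 calls (22.3% to 39.6%), and scl28 against WT 0 to 3 (13.7% to 26.9%). In d14-7 there were 6 to 7 against libraries labelled ckx3 ckx5 (30% to 41%) and 7 to 10 against scl28 (35.8% to 46.5%). Between scl28 and libraries labelled ckx3 ckx5 there were 0 to 2 (19.6% to 28.9%), and for any difference 8 to 10 (55.4% to 70.8%). Libraries with the same replicate number deviated together no more than others (r = -0.28 to 0.34, median 0, against -0.35 to 0.37, median -0.01). For the number in the library name r was -0.28 to 0.19 (median 0.01). Such correlations, taken over all tested loci at once, cannot exclude that samples were paired. A fit with the replicate number as a block called 10 genes in d14-7 against WT (37.4% of all loci). In libraries labelled ckx3 ckx5 against WT it called 1 (28.1%) and in scl28 against WT 0 (18.6%). In d14-7 it called 6 against libraries labelled ckx3 ckx5 (35.4%) and 9 against scl28 (41.5%). It called 1 in scl28 against libraries labelled ckx3 ckx5 (23.3%) and 9 for any difference (60.5%). A replicate block by the number in the library name gave 7, 1, 0, 6, 7, 1 and 8 in the same order. With it fewer loci were called in all, 23.4%, 22.7%, 15.6%, 30%, 24.4%, 15.6% and 45.2% in that order. YUC1, YUC3 and YUC5 were then not called in d14-7 against WT (edgeR adjusted p = 0.0744, 0.0598 and 0.0549). Nor were TAR2 and YUC4 in d14-7 against scl28 (0.334 and 0.262). Depth limits YUC5, YUC8 and YUC9 outside d14-7, where most libraries held fewer than 10 counts.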

Other observations

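TAR2, YUC4 and YUC6 each have counts on 2 transcript models, whose split is an estimate. The second model of TAR2 held 19.4% of its counts in d14-7, 28.4% in libraries labelled ckx3 ckx5, 33.1% in scl28 and 24% in WT. In scl28 the share ran from 22.4% to 59.2%, with 181 counts on the second model and 125 on the first in replicate 4. The second model of YUC4 had 64 counts in d14-7, spread over all 4 libraries (19, 11, 21 and 13), and 22 counts in libraries labelled ckx3 ckx5, all in replicate 3. It had 12 counts in scl28, and its 14 counts in WT were all in replicate 1. The first model of YUC6 held 88.4% of its counts in d14-7, 89.3% in libraries labelled ckx3 ckx5, 84.8% in scl28 and 87.7% in WT. None of these shares was tested.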
